A study of Sisymbrium orientale with 12 samples.

Results

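Untreated leaves of 5 Sisymbrium orientale (Indian hedge mustard) lines that share the label 2,4-D resistant were compared by the cross they came from. The cross B side holds the F3 lines RP6 and RP8, and the cross A side the F4 lines R202, R206 and R221, each with 1 library, so 5 of the 12 libraries of the series are described. The other 7 libraries, labelled susceptible, come from the same crosses (SP3, SP7, SP9 and SRP1 of cross B, F3, and S205, S207 and S242 of cross A, F4) and share no library with the comparison; they are used as a second reading. All plants were grown at 25 °C by day and 20 °C by night with 16 h of light and 8 h of dark, none was given herbicide, and the youngest expanded leaf was taken. The labels give neither the parents of the crosses nor the number of plants behind a library, so p-values here measure the spread between these libraries alone. Cross and generation cannot be told apart, because every cross B line is F3 and every cross A line is F4.

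Lines selected from a cross carry a draw of the parents' alleles, and later generations of a selfing species are less heterozygous than earlier ones. A difference of background between crosses can therefore appear in RNA as a transcript that is present with one allele and missing with another, or as a change in the amount of the same transcript. Auxin herbicides such as 2,4-D act by promoting the breakdown of Aux/IAA repressors, the family to which IAA2, named in the series title, belongs. The transcripts here are contigs, sequences assembled from reads, in 2 assemblies marked R and S, and each contig is tied to its best Arabidopsis locus. A locus often has a contig in each assembly, so a pair of similar sequences can share reads between them, and a contig's value is uncertain by itself where it has a partner.

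Each library held between 100976475 (R206) and 145936928 (RP8) recovered reads over the contigs, so 3 reads correspond to 0.0196 to 0.0299 CPM (counts scaled to library size). Of 33277 contigs, 31740 (95.4%) had at least 1 CPM in 2 of the 5 libraries, 11890 from the R and 19850 from the S assembly. Of 13 leaf mesophyll markers, 11 were in the table, and their summed level was 66974 and 58561 CPM in RP6 and RP8, against 47891, 62438 and 58367 CPM in R202, R206 and R221. None of 6 root and none of 3 seed markers was in the table. The dividing-cell markers (16 of 16 present) summed to 632 and 683 CPM in RP6 and RP8, below 726 to 823 CPM in the cross A lines. The susceptible groups overlapped, at 360 to 527 CPM in cross B and 339, 633 and 881 CPM in S205, S207 and S242. In a bulk leaf, fewer cells of a type and less RNA per cell cannot be told apart. RP6 and RP8 had a median absolute difference over contigs of 0.122 on the log2 scale, against 0.170 to 0.211 between a cross B and a cross A line and 0.202 to 0.252 between cross A lines. Chi-square per contig of the recovered reads was 95.3 for RP6 and R206 and 107 for RP6 and RP8. This measure grows with the number of reads, and R206 had the fewest, so it does not rank these pairs.

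RP6 and RP8 lacked, or nearly lacked, a set of transcripts that R202, R206 and R221 had, and fewer went the other way. Of the 31740 contigs, 123 (0.388%) passed an adjusted p of 0.05 in limma, 7 higher (0.0221%) and 116 lower (0.365%) in cross B, and they belong to 71 loci. Both cross B lines were under 0.5 CPM at 85 of the 116 lower contigs, whereas all cross A lines were under 0.5 CPM at 1 of the 7 higher contigs. Over all 31740 kept contigs, both cross B lines were under 0.5 CPM at 375 and all cross A lines at 23. The filter favours absence from cross B. A contig absent there is kept through any 2 of the 3 cross A lines, and one absent from cross A only if both RP6 and RP8 reach 1 CPM. Libraries near 0 also differ little on log2(CPM + 0.5), the scale of the test, which can favour calls at such contigs. The lower contigs were 60 from the R and 56 from the S assembly, and the 7 higher ones were all from the S assembly, while R contigs make up 37.5% of all contigs kept. Groups that do not overlap were far more common than calls, at 6696 contigs (21.1%), and 1902 contigs (5.99%) had an unadjusted p under 0.05. The count rests on few libraries: leaving out RP8 gave 0 higher and 22 lower contigs (984 in either direction at an unadjusted p under 0.05), leaving out RP6 gave 4 and 66, and leaving out R202, R206 or R221 gave 52 and 84, 68 and 240, and 53 and 99. Without RP6 or RP8 a lone cross B library remains, which is assumed to vary like the cross A lines. DESeq2 on recovered reads called 295 higher and 575 lower contigs, and edgeR 6 and 121.

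The largest difference was at the R contig of AT2G48120, PALE CRESS, a plastid protein needed for chloroplast development. It had 0.0583 and 0.098 CPM in RP6 and RP8, against 95.3, 79.7 and 67.4 CPM in R202, R206 and R221, a difference of -7.12 ± 0.17 (SE) on the log2(CPM + 0.5) scale (limma adjusted p = 0.000967). The groups were far apart, and the susceptible lines repeated the split, with 0.0509 to 0.0882 CPM in the 4 cross B lines and 56.0 to 91.4 CPM in the 3 cross A lines. The locus was not silent in cross B: its S contig had 98.8 CPM in both RP6 and RP8, against 81.7, 126 and 65.5 CPM in cross A, where the groups overlapped. Summed over the locus, cross B had 98.8 and 98.9 CPM and cross A 177, 205.7 and 133 CPM, and the sum did not pass the test (difference -0.77, limma adjusted p = 0.564).

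The S contig of AT4G23690, a dirigent protein of the family that steers the coupling of lignan and lignin precursors, came next. It had 0.117 and 0.085 CPM in RP6 and RP8, against 79.2, 67.5 and 79.3 CPM in the cross A lines (-6.98 ± 0.12, limma adjusted p = 0.000369). Here the locus as a whole fell with it, to 4.1 and 4.09 CPM in cross B, against 86.6, 72.8 and 86.7 CPM in cross A (-4.16 ± 0.12, limma adjusted p = 0.000408). Its presence did not follow the cross in the susceptible lines: SP7 and SP9 had 0.0882 and 0.119 CPM, while SP3 and SRP1 had 84.6 and 72.8 CPM, close to the 67.6 to 80.4 CPM of the cross A lines. In the fit of all 12 libraries the contig's adjusted p was 0.388 and that of the sum 0.15.

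At other loci the R contig was lower and the S contig higher in cross B, and the sum of the locus did not pass the test. NUDX26 (AT3G10620), a Nudix hydrolase, had 0.809 and 0.837 CPM on its R contig in RP6 and RP8, against 34.8, 86.0 and 67.0 CPM in the cross A lines (-5.48 ± 0.38, limma adjusted p = 0.0109). Its S contig had 44.3 and 40.5 CPM in RP6 and RP8, against 22.3, 1.2 and 1.23 CPM in R202, R206 and R221. R202 carried both contigs, R206 and R221 mainly the R one, and cross B mainly the S one. The sum was 45.1 and 41.3 CPM in cross B, against 57.1, 87.2 and 68.3 CPM in cross A (limma adjusted p = 0.647). The DnaJ-domain protein AT3G09700 had the same form, its R contig at 0.0146 and 0 CPM in cross B, against 5.77, 10.4 and 9.51 CPM in cross A (-4.12, limma adjusted p = 0.00899), and its S contig at 4.55 and 5.61 CPM, against 2.38, 0.020 and 0.0138 CPM. Its sum was 4.57 and 5.61 CPM in cross B, against 8.14, 10.4 and 9.53 CPM in cross A, without overlap (-0.82, limma adjusted p = 0.379). The NUDX26 sums did not overlap either (-0.69). AT3G10572, annotated as related to a phosphoinositide-dependent kinase, had 0.233 and 0.209 CPM on an R contig in RP6 and RP8, against 7.96, 19.1 and 16.3 CPM in cross A (-4.29, limma adjusted p = 0.0270), while the difference of its sum was -0.02. With 1 cross B library left, the differences of these 3 contigs changed little (-5.50 without RP8 and -5.47 without RP6 at NUDX26) but missed the threshold. Without RP8 the adjusted p was 0.102, 0.0845 and 0.189 at NUDX26, AT3G09700 and AT3G10572, and without RP6 it was 0.0713, 0.0597 and 0.127. AT3G10572 also missed the threshold without R221 (0.0646).

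Immune receptor genes of neighbouring Arabidopsis loci were among the lower contigs. AT4G19510, a TIR-NBS-LRR immune receptor of the class that detects pathogen effectors inside the cell, had 0.0437 and 0.0784 CPM on an S contig in RP6 and RP8, against 15.3, 12.7 and 17.0 CPM in the cross A lines (-4.78 ± 0.16, limma adjusted p = 0.00248). Its locus sum was 0.102 and 0.222 CPM in cross B, against 29.3, 23.5 and 31.5 CPM in cross A, and 0.0557 to 0.213 CPM in the cross B susceptible lines, against 22.5, 23.7 and 28.5 CPM in S205, S207 and S242. All 12 libraries therefore split by cross at this receptor, and its call held in each of the 14 alternatives. The next Arabidopsis locus, AT4G19500, also had an R contig near absence in cross B, at 0.0146 and 0.0131 CPM, against 12, 7.74 and 11.9 CPM in cross A (-4.40 ± 0.23, limma adjusted p = 0.00433, but 0.0531 without RP8). Its sum did not pass, at 19.1 and 29.0 CPM in cross B and 60.4, 40.6 and 61.9 CPM in cross A (limma adjusted p = 0.485). A second neighbouring pair, the TIR-NBS-LRR gene AT4G12010 and the kinase AT4G12020, was low in cross B as a whole. Summed, AT4G12010 had 0.445 and 0.654 CPM in RP6 and RP8, against 8.89, 7.62 and 8.44 CPM in cross A (-3.08, limma adjusted p = 0.00289), and AT4G12020 had 0.525 and 0.752 CPM, against 11.2, 15.1 and 13.3 CPM (-3.59, limma adjusted p = 0.00217).

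A leucine-rich repeat receptor kinase locus, AT1G29720, supplied 14 of the 116 lower contigs by itself. Its most different contig had 0.146 and 0.144 CPM in RP6 and RP8, against 11.5, 10.6 and 15.6 CPM in the cross A lines (-4.32, limma adjusted p = 0.00374). The locus has 89 contigs, and their sum was 248 and 234 CPM in cross B and 339, 283 and 434 CPM in cross A, which did not pass (limma adjusted p = 0.904). Among the susceptible cross B lines SRP1 alone was low on this contig, at 0.167 CPM, against 9.13, 8.64 and 5.32 CPM in SP3, SP7 and SP9, and with all 12 libraries in the fit its adjusted p was 0.147. The 14 contigs are tied to the same locus and can share reads, so they stand for 1 locus and not for 14 observations.

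Of the remaining contigs with the largest decreases, those of AT3G11910 and AT5G44410 repeated the on and off form. UBP13 (AT3G11910), a deubiquitinating protease, had an R contig at 0 and 0.0131 CPM in RP6 and RP8, against 13.3, 21.9 and 24.8 CPM in the cross A lines (-5.29, limma adjusted p = 0.00452, but 0.0531 without RP8), and its locus sum was 108 and 105 CPM in cross B, against 158, 159 and 179 CPM in cross A (-0.62). AT5G44410, a berberine-bridge-type FAD oxidase, had an R contig at 0 and 0.0196 CPM in cross B, against 8.89, 7.42 and 8.21 CPM in cross A (-4.09, limma adjusted p = 0.00248), beside an S contig with 41.9 and 52.4 CPM in cross B and 44.9, 45.4 and 38.4 CPM in cross A. The EamA-type transporter AT5G40240 had 20 contigs, whose sum was 17.5 and 19.7 CPM in RP6 and RP8, against 47.2, 57.7 and 40.2 CPM in cross A (-1.34, limma adjusted p = 0.11). Its called S contig with the largest difference had 0.0583 and 0.085 CPM in RP6 and RP8, against 12.9, 5.45 and 10.5 CPM in cross A (-4.07, limma adjusted p = 0.0274). That call was the least stable of the 3, with an adjusted p of 0.0525 without R202, 0.0694 without R221, 0.134 without RP6 and 0.189 without RP8.

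At 10 of the lower contigs neither cross B line had any read, so only a lower bound can be given, computed against 3 reads per library. CYCD3;1 (AT4G34160), a D-type cyclin that drives entry into the cell cycle, had 0 CPM on an S contig in both, against 3.44, 2.88 and 3.60 CPM in R202, R206 and R221, and was at least 159-fold lower. The locus as a whole was expressed in cross B, with a mean sum of 46.3 CPM in cross B and 78.3 CPM in cross A (-0.85, limma adjusted p = 0.904). One S contig of SAG101 (AT5G14930), a partner of EDS1 in immune receptor signalling, had 0 CPM in RP6 and RP8, against 4.09, 2.35 and 4.02 CPM in the cross A lines, and was at least 168-fold lower. The mean sum of the locus's 10 contigs was 32.4 CPM in cross B and 47.4 CPM in cross A (-0.54, limma adjusted p = 0.561). A second R contig of UBP13 (AT3G11910) was at 0 in both, against 11.4, 19.2 and 20.4 CPM in the cross A lines, and was at least 821-fold lower. The R contig of the brassinosteroid receptor locus AT4G39400 (BRI1) had 0 CPM in RP6 and RP8, against 1.73, 2.17 and 2.51 CPM in the cross A lines, at least 103-fold lower. The mean sum of that locus was 72.3 CPM in cross B and 84.9 CPM in cross A (-0.22). The contig of the MLO membrane protein AT2G17430 was at least 94.9-fold lower, and there the sum fell too, as the locus sums show. The median over the 116 contigs was -2.76 on the log2 scale, and -2.85 with these 10 at their bound.

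**Figure D1:**
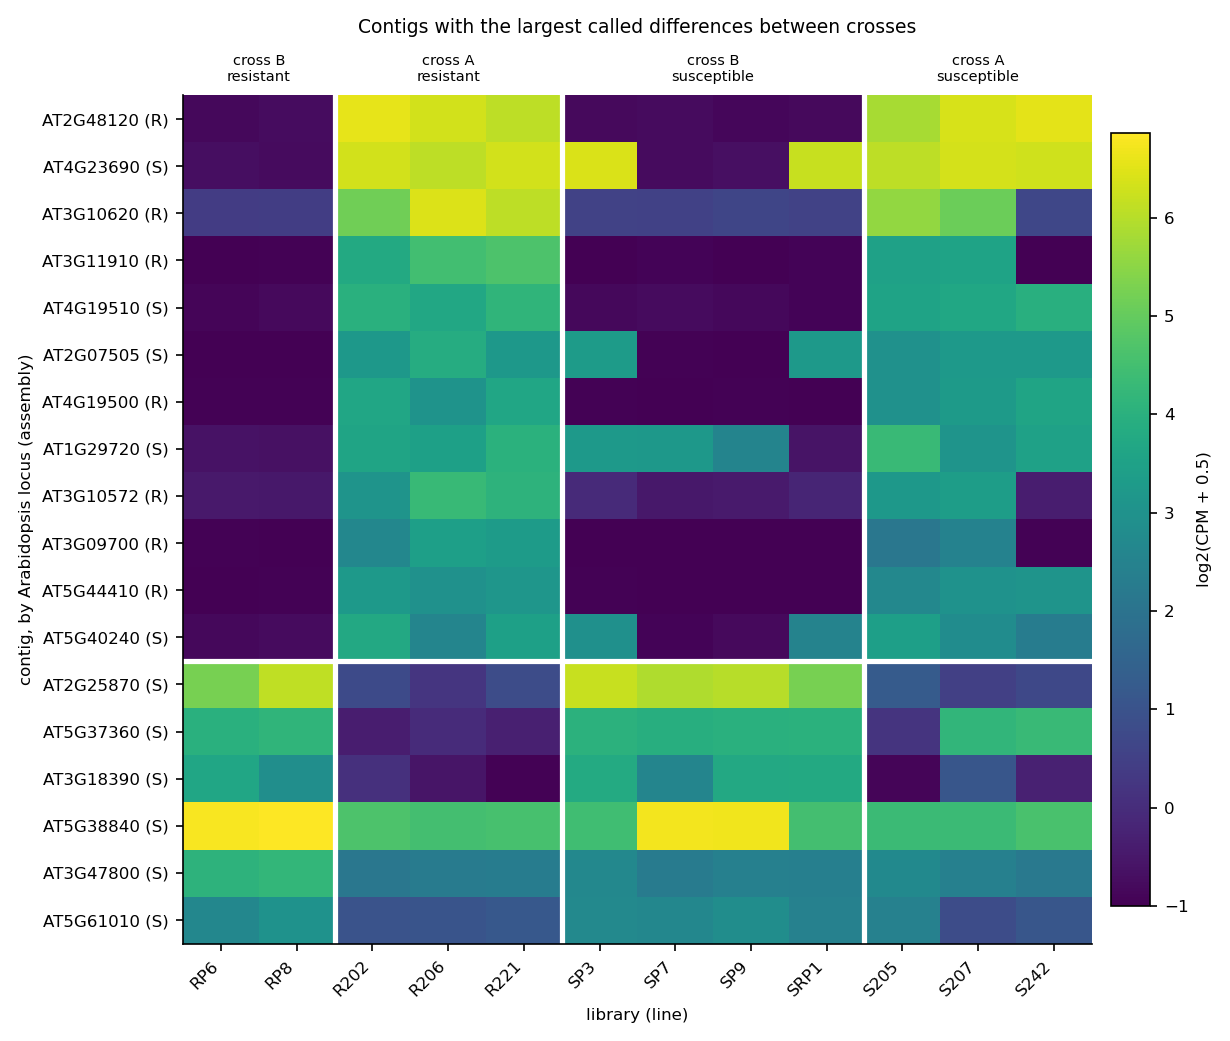
Level of 18 named contigs in 12 libraries, as log2(CPM + 0.5) by colour; rows are the 12 contigs lowest and the 6 highest in cross B, and columns are RP6 and RP8, then R202, R206 and R221, then the susceptible lines of cross B and of cross A. PALE CRESS and AT4G19510 split all 12 libraries by cross, while AT4G23690 is present in SP3 and SRP1 and absent in SP7 and SP9.

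The 7 higher contigs were fewer and mostly additions beside a locus that was expressed in every line. AT2G25870, a haloacid dehalogenase-type hydrolase, had an S contig at 37.8 and 68.2 CPM in RP6 and RP8, against 1.21, 0.669 and 1.27 CPM in R202, R206 and R221 (5.07 ± 0.32, limma adjusted p = 0.00756, but 0.0529 without RP8). The susceptible lines repeated this, with 37.4 to 73.1 CPM in the 4 cross B lines and 0.906 to 1.89 CPM in the 3 cross A lines. Its sum was 209 and 246 CPM in cross B, against 147, 132 and 166 CPM in cross A, a difference of 0.62. AT5G37360, of unknown function, had 15.4 and 17.2 CPM on an S contig in RP6 and RP8, against 0.266, 0.469 and 0.303 CPM in cross A (4.32 ± 0.16, limma adjusted p = 0.00248), yet S207 and S242 of cross A had 17.4 and 19.4 CPM. AT3G18390, a CRM-domain protein of the family that splices organelle introns, had 12 and 6.87 CPM on an S contig, against 0.561, 0.18 and 0.0138 CPM in cross A (3.74, limma adjusted p = 0.0421). That call ended without R206 (adjusted p 0.0965), without R221 (0.0646), at a pseudocount of 0.1 (0.138) and in edgeR (0.436).

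AT5G38840, an FHA-domain protein, and AT5G61010, the exocyst subunit EXO70E2 that acts in secretion, were also called higher by locus sum. Each has only 1 contig, so its sum repeats that contig and there is no partner contig to compare. AT5G38840 had its called contig at 109 and 116 CPM in RP6 and RP8, against 24.9, 22.4 and 23.2 CPM in R202, R206 and R221 (2.23 ± 0.11, limma adjusted p = 0.00379; 0.0643 without RP8). Among the susceptible lines SP7 and SP9 had 106 and 102 CPM, and SP3 and SRP1 had 21.3 and 22.1 CPM, like the 20.0 to 23.6 CPM of cross A. EXO70E2 had 5.78 and 7.50 CPM in RP6 and RP8, against 1.51, 1.55 and 1.72 CPM in cross A (1.76, limma adjusted p = 0.0274). Its call ended when any 1 of the 5 libraries was left out, with adjusted p from 0.0545 without R206 to 0.235 without RP8, and was 0.0752 without R202, 0.0558 without R221 and 0.0945 without RP6. AT3G47800, a galactose mutarotase-like enzyme, had 1 of the 2 called contigs whose difference did not have the same direction in the susceptible lines. It had 16.3 and 17.8 CPM in RP6 and RP8, against 3.81, 4.31 and 4.42 CPM in the cross A lines (1.91 ± 0.12, limma adjusted p = 0.00728; 0.0625 without RP6, 0.111 without RP8), while the susceptible lines had 4.32 to 5.84 CPM in cross B and 4.05 to 6.18 CPM in cross A.

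Summing all contigs of a locus left fewer differences. Of 16105 loci kept, 21 (0.13%) passed in limma, 2 higher (0.0124%) and 19 lower (0.118%) in cross B. Each of the 2 higher loci has 1 contig, so its sum repeats the contig call. Without RP8 the counts were 2 higher and 12 lower, without RP6 1 and 17, and without R202, R206 or R221 5 and 20, 8 and 30, and 11 and 18; DESeq2 gave 118 and 137. Of the 71 loci with a called contig, 54 had contigs of both assemblies, 60 had other kept contigs, and at 12 of them another contig moved the opposite way by at least 1 log2 unit. The locus sum differed by less than 2-fold at 43 of the 71 loci, and the sum itself was called at 20. The median absolute difference was 2.77 on the log2 scale for the most different called contig of a locus and 0.686 for the sum. Most of the contig differences therefore stood beside a locus whose total differed less, and the loci whose total did fall are described next.

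**Figure D2:**
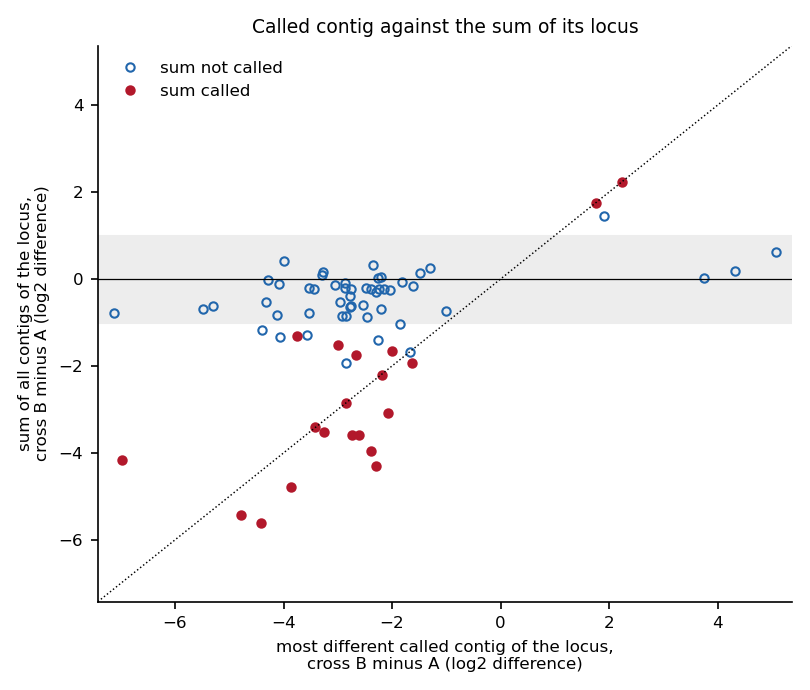
For 71 loci, the log2 difference (cross B minus cross A, resistant lines, on log2(CPM + 0.5)) of the most different called contig on the x axis and of the locus sum on the y axis; filled red points are loci whose sum passed the test, the grey band marks sums within 2-fold, and the dotted line marks equal values. At 43 loci the sum lies inside the band, and at 20 it passed the test.

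Several loci were nearly absent as a whole from RP6 and RP8. AT2G07505, annotated as zinc ion binding, summed to 0.0292 and 0 CPM in RP6 and RP8, against 22.2, 31.5 and 21.6 CPM in the cross A lines (-5.62 ± 0.20, limma adjusted p = 0.000451). AT5G37760, a DnaJ-domain chaperone, summed to 0.0146 and 0.0261 CPM in RP6 and RP8, against 15.3, 13.0 and 13.0 CPM in cross A (-4.77 ± 0.16, limma adjusted p = 0.000408). Both loci followed the same lines elsewhere: SP7 and SP9 had 0.0147 to 0.0441 CPM of them, SP3 and SRP1 12.3 to 22.3 CPM, and the cross A susceptible lines 11.1 to 22.4 CPM. The MLO gene AT2G17430, of a family known for powdery mildew susceptibility, summed to 0.0146 and 0 CPM in RP6 and RP8, against 9.20, 9.21 and 10.2 CPM in cross A (-4.30 ± 0.16, limma adjusted p = 0.000451). It was at most 0.0159 CPM in the 4 susceptible cross B lines, and in the susceptible cross A lines it had 3.87 CPM in S205, 0 in S207 and 11.1 CPM in S242.

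AT2G03710 (SEP4 in Arabidopsis), a MADS-box factor of floral organ identity, summed to 0.364 and 0.085 CPM in RP6 and RP8, against 15.5, 8.27 and 8.86 CPM in R202, R206 and R221 (-3.94 ± 0.32, limma adjusted p = 0.0184). The susceptible lines went the other way, with 4.66 to 20.4 CPM in cross B and 7.71 to 10.2 CPM in cross A (difference 0.55), and the call ended without R206 (adjusted p 0.0641), R221 (0.0571) or RP8 (0.0909). Of 6 flower markers 2 were in the table, and they summed to 2.24 and 1.99 CPM in RP6 and RP8, against 4.86, 5.19 and 1.60 CPM in the cross A lines; their part in this result was not tested. Methyl esterase MES6 (AT2G23550), of a family that cleaves methyl esters of plant hormones, summed to 0.189 and 0.503 CPM in cross B, against 9.26, 8.37 and 11.2 CPM in cross A (-3.59, limma adjusted p = 0.00544; edgeR 0.0562), while SP3 and SRP1 of cross B had 7.39 and 7.36 CPM. Smaller decreases were found at the exostosin-family glycosyltransferase AT5G16890, with 30.1 CPM in both RP6 and RP8, against 94.1, 73.2 and 97.6 CPM in cross A (-1.53, limma adjusted p = 0.0472), and at the F-box gene AT1G11270, with 20.5 and 19.9 CPM, against 49.8, 47.6 and 54.0 CPM (-1.30, limma adjusted p = 0.0202). The cell-surface kinases AT5G39020 and AT5G38280 fell by 1.75 and 1.65 on the same scale. SP3 and SRP1 were like cross A at AT5G16890, with 95.7 and 89.3 CPM. At AT1G11270 all 4 susceptible cross B lines were low, at 19.98 to 22.6 CPM, against 46.6 to 52.2 CPM in the susceptible cross A lines.

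The 7 susceptible lines allowed the calls to be read in libraries that the test had not used. The difference of group means had the same direction at 121 of the 123 contigs (98.4%, exact Clopper-Pearson 95% interval 94.3 to 99.8%, which takes contigs as independent and is therefore too narrow), against 62.0% of all kept contigs. Without R221 in the test the share was 80.9% of the contigs then called. The 4 cross B and 3 cross A susceptible lines did not overlap, in the same direction, at 61 of them (49.6%), against 10.1% of all kept contigs; in either direction they did not overlap at 12.9%. The median difference over the lower contigs was -2.76 in the resistant and -1.61 in the susceptible lines, and over the higher ones 3.05 and 1.21. Over all kept contigs the medians were 0.00096 and -0.0074.

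The smaller susceptible medians came with a split among the susceptible lines themselves. Taking the midpoint between the cross B and cross A resistant means at each contig, a rule chosen after the values were seen, SP7 stood on the cross B side at 105 of 123 contigs, SP9 at 104, SRP1 at 86 and SP3 at 72. The cross A lines S205 and S207 stood on the cross B side at 9 contigs each and S242 at 25. All 4 cross B susceptible lines stood on the cross B side at 70 contigs of 48 loci, SP7 and SP9 alone at 30 contigs of 17 loci, and SRP1 alone at 14 contigs, all of AT1G29720. All 7 lines followed their cross at 43 contigs. At the other contigs at least 1 susceptible line stood on the side of the other cross, as at AT4G23690, AT2G07505 and AT5G37760. In the fit of all 12 libraries, whose spread includes these lines, 18 of the 28 named contigs and sums no longer passed, with adjusted p between 0.0856 for the AT3G09700 contig and 0.693 for the AT5G38840 sum.

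**Figure D3:**
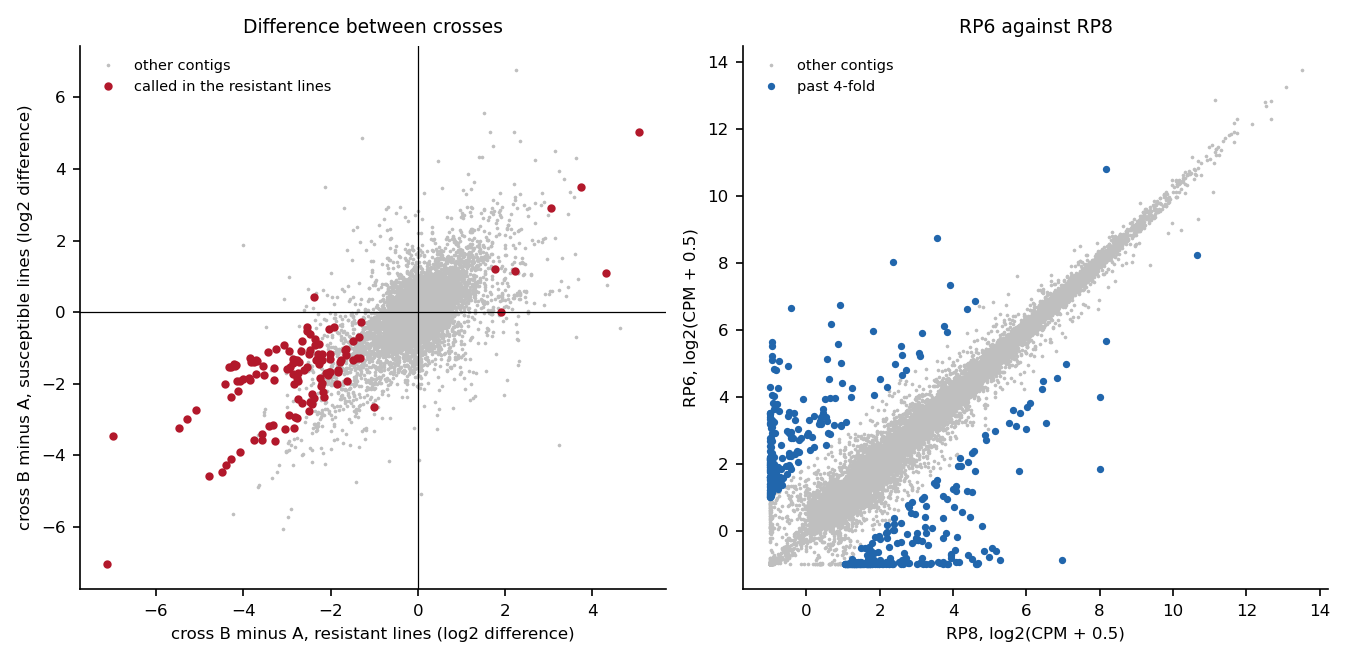
Left, the log2 difference between cross B and cross A for each kept contig in the resistant lines (x axis) and in the susceptible lines (y axis), with the 123 called contigs in red; right, the level of each contig in RP8 (x axis) and RP6 (y axis) as log2(CPM + 0.5), with the 412 contigs past 4-fold in blue. Of the red points, 121 have the same sign on both axes.

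Whether a cross difference was itself unlike that of the susceptible lines was tested as a difference of differences in 12 libraries. No contig passed in limma (0%, with 1077 contigs or 3.39% at an unadjusted p under 0.05), whereas edgeR called 16 and DESeq2 104. Leaving out R221 gave 83 contigs in limma, and leaving out R202 or RP8 gave 7 each. The smallest p-values included the AT3G47800 contig described above (1.91, limma adjusted p = 0.133). The glycosyl hydrolase AT3G06510 had 8.98 and 9.69 CPM in RP6 and RP8 and 7.35, 7.95 and 10.2 CPM in the cross A resistant lines, with group means of 10.9 and 69.2 CPM in the cross B and cross A susceptible lines (2.75, limma adjusted p = 0.133). An R contig of the WD40-repeat gene AT3G50590 had 0.00729 and 0 CPM in RP6 and RP8, against 1.01, 1.03 and 1.02 CPM in R202, R206 and R221, while susceptible means were 0.995 CPM in cross B and 1.23 CPM in cross A (-1.38, limma adjusted p = 0.37). None of these 3 passed the test, so no contig was shown by limma to be specific to the resistant lines.

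Ordered by their Arabidopsis loci, whose order may differ from that of the Sisymbrium genome, called contigs were spread over all 5 chromosomes at 0.345 to 0.503% of kept contigs. Of 162 runs of 100 loci, 114 held no called contig. The run from AT1G29390 to AT1G31170 had the highest share, 14 of 275 contigs (5.09%; 1.87% without RP8, 3.36% without RP6 and 0.364% in the fit of 12 libraries), all from AT1G29720, followed by AT3G08500 to AT3G09840 with 6 of 191 contigs (3.14%) at 4 loci and AT4G11640 to AT4G13410 with 6 contigs (2.90%) at 2 loci. Grouping called loci no more than 50 kept loci apart, chosen after the values were seen, gave 46 stretches, of which 36 held 1 locus and 3 held 3 or more.

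The longest stretches differed in their partners and sums. From AT3G09160 to AT3G11170, 9 of 144 loci (6.25%, a share raised by the rule, since a stretch begins and ends with a called locus) held 11 called contigs, all lower in cross B and 10 of them from the R assembly. At 7 of these loci a partner contig moved the opposite way, 8 sums stayed within 2-fold and 0 sums were called. The stretch holds NUDX26, AT3G09700, AT3G10572 and FAD7 (AT3G11170), a plastid fatty acid desaturase whose R contig had 3.81 and 3.49 CPM in RP6 and RP8, against 25.0, 53.0 and 47.9 CPM in the cross A lines (-3.29, limma adjusted p = 0.0416). From AT5G37360 to AT5G40240, 8 of 132 loci (6.06%) held 11 called contigs, 2 of them higher, and 5 sums were called, including AT5G37760 and AT5G38840. The susceptible lines differed between the stretches: in the chromosome 5 one SP7 and SP9 stood on the cross B side at 11 and 10 of 11 contigs and SP3 and SRP1 at 1 each, while in the chromosome 3 one S242 of cross A stood on the cross B side at 10 of 11.

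**Figure D4:**
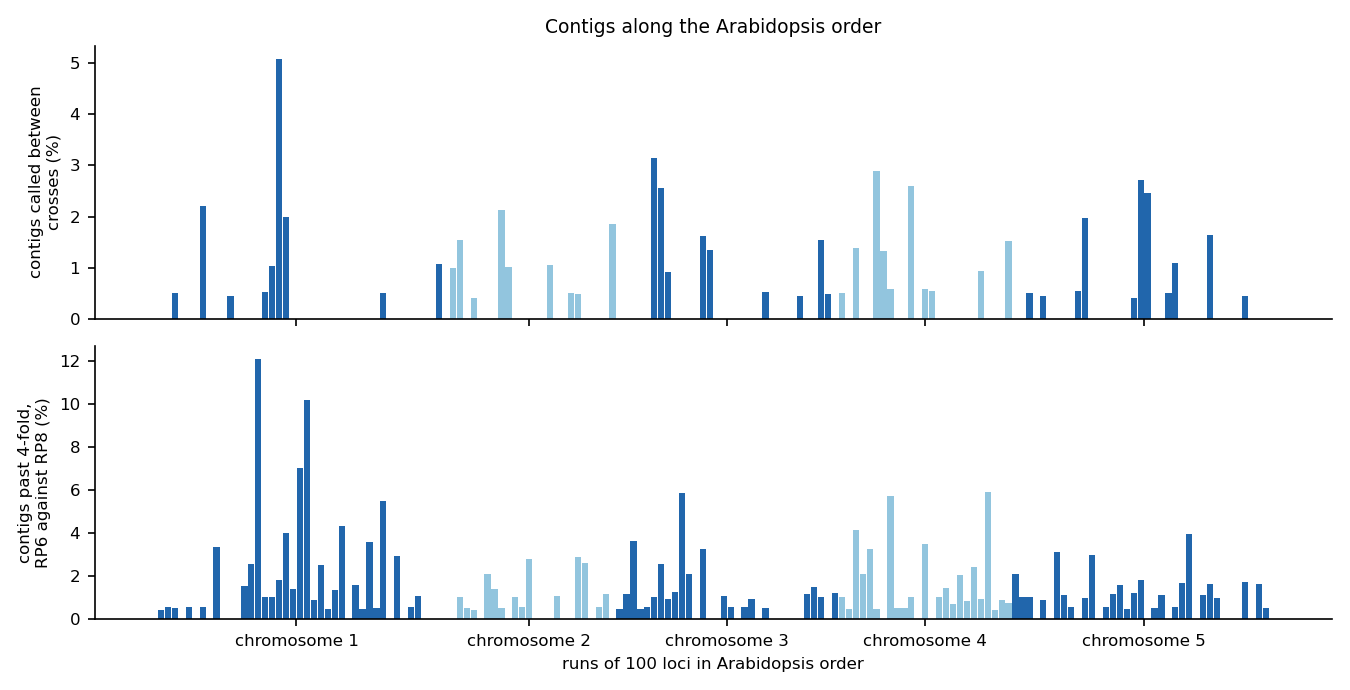
Share of contigs per run of 100 loci in Arabidopsis order (chromosomes 1 to 5, x axis), in percent on the y axis; the top bars give contigs called between cross B and cross A, and the bottom bars contigs past 4-fold between RP6 and RP8. The highest run is 5.09% above and 12.1% below, and the 3 highest runs of the lower panel held 0 called contigs. In the highest run below, 20 of the 27 contigs are of AT1G24460, and in that above all are of AT1G29720.

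Gene families and pathways were described by 27 lists. Called contigs fell in 8 of them, all lower in cross B. Of the receptor-like and lectin kinases 18 of 489 contigs were lower (14 of them AT1G29720), beside 4 of 211 NBS-LRR contigs (AT4G12010 and AT4G19510) and 4 of 276 F-box contigs (all AT1G11270), against 0.388% of all contigs. Dividing cells had 2 of 28 lower, both of CYCD3;1, and the list of salicylic acid and immune genes 1 of 25, SAG101. The UDP-glycosyltransferase list had 1 of 157, the R contig of AT4G15480, with 0.0437 and 0.0131 CPM in RP6 and RP8, against 4.21, 4.37 and 5.21 CPM in the cross A lines (-3.27, limma adjusted p = 0.00433). Ribosomal proteins had 1 of 444 (AT2G41840) and transposon-related contigs 1 of 76 (ATMG01250). The other 19 lists had 0 called contigs in limma.

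Among the lists without calls, the myrosinases and specifier proteins stood lowest. Myrosinases cut glucosinolates, the mustard oil precursors of this plant family, and specifier proteins steer the products. Of 49 contigs 41 had a negative difference, with a median of -0.58 (-1.06 in the susceptible lines) beside 0.00096 over all contigs, and 17 (34.7%) had an unadjusted p under 0.05, against 5.99% of all. The myrosinase TGG2 (AT5G25980) had a contig at 155 and 169 CPM in RP6 and RP8, against 390, 354 and 463 CPM in R202, R206 and R221 (-1.30, limma adjusted p = 0.063), and TGG1 (AT5G26000) 6.54 and 5.58 CPM, against 11.1, 9.62 and 10.3 CPM (-0.72, limma adjusted p = 0.178). The groups did not overlap at either, but neither passed. The 38 glucosinolate synthesis contigs leaned the other way, 30 positive with a median of 0.39 (0.38 in the susceptible lines). CYP83A1 (AT4G13770) had 672 and 633 CPM in RP6 and RP8, against 377, 559 and 431 CPM in cross A (0.54, limma adjusted p = 0.802), while CYP79B3 (AT2G22330), of the indole branch, had 17.4 and 27.6 CPM, against 32.8, 37.1 and 50.001 CPM (-0.83, limma adjusted p = 0.69).

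Heat shock and folding genes had 15 of 16 contigs negative, with a median of -0.25 and 5 (31.3%) at an unadjusted p under 0.05. Heat shock factor HSFA2 (AT2G26150) had 2.35 and 2.71 CPM in RP6 and RP8, against 4.34, 4.91 and 5.90 CPM in the cross A lines, without overlap (-0.86, limma adjusted p = 0.236). Photosynthesis genes were positive at 35 of 46 contigs (median 0.27, and 0.074 in the susceptible lines). Calvin cycle genes were positive at 26 of 28 (median 0.14), but in the susceptible lines their median was -0.15. The low resistant line in both lists was R202. Its mean log2 level of photosynthesis contigs was 7.05, against 7.71 and 7.77 in R206 and R221 and 7.88 and 7.79 in RP6 and RP8. The ribosomal protein list had 355 of 444 positive with a median of 0.14 (0.29 in the susceptible lines). Among the resistant lines the low one was R221. The list had a mean log2 level of 5.07 and 5.12 in RP6 and RP8, against 5.07, 5.12 and 4.73 in R202, R206 and R221. The salicylic acid marker PR1 (AT2G14610) had 11.6 and 8.08 CPM in RP6 and RP8, against 5.09, 3.11 and 4.16 CPM in cross A (1.17, limma adjusted p = 0.317). An R contig of the clock gene RVE8 (AT3G09600) had 0 CPM in both cross B lines, against 1.47, 2.80 and 1.79 CPM in cross A, and missed the threshold (limma adjusted p = 0.0656). None of HSFA2, PR1 and RVE8 passed the test.

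IAA2 (AT3G23030) did not separate the crosses among the resistant lines. The sum of its 4 contigs was 13.3 and 12.3 CPM in RP6 and RP8, against 12.5, 14.8 and 15.3 CPM in R202, R206 and R221, with means of 12.8 ± 0.659 (SD, n = 2) and 14.2 ± 1.5 CPM (SD, n = 3). The groups overlapped, and the difference was -0.14 ± 0.13 (SE) on the log2 scale (limma adjusted p = 0.9996). Its 4 contigs differed by -0.05 to -0.20, and none was called. The auxin response lists held 0 called contigs of 31 for the Aux/IAA repressors and 0 of 49 for SAUR and GH3 genes.

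RP6 and RP8 also differed from each other. With 1 library a line there is no test, so contigs were counted past 4-fold on the log2(CPM + 0.5) scale with at least 1 CPM in the higher line: 412 contigs (1.3%) of 227 loci, 195 higher (0.614%) and 217 lower (0.684%) in RP6. By the same rule the pairs of cross A lines gave 586, 586 and 727 contigs. The pairs of a cross B and a cross A line gave 484 (RP6 and R206) to 876 (RP8 and R221), so RP6 and RP8 had the fewest of any pair. At the edge of the rule the nearest contigs stood at 2.0004 inside and 1.9917 outside. The lower line was under 0.5 CPM at 299 of the 412 contigs, 162 passed 8-fold and 75 passed 16-fold. None of the 412 was among the 123 contigs called between the crosses, where a large difference between RP6 and RP8 widens the spread of the test.

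Some of these differences lay between contigs of the same locus. Contigs higher in RP6 were 112 from the R and 83 from the S assembly, whereas those lower in RP6 were 34 and 183. At 132 of the 227 loci the sum stayed within 2-fold, 19 loci had contigs past 4-fold both ways, and by locus sum 75 of the 16105 loci (0.466%) passed, 38 higher and 37 lower in RP6. Photosystem I subunit F (PSAF, AT1G31330), which docks plastocyanin, showed this at a high level. Its R contig had 1787 CPM in RP6 and 290 CPM in RP8 and its S contig 301 and 1604 CPM, and the sum was 2090 CPM in RP6 and 1911 CPM in RP8. The cross A lines had 713, 1855 and 1866 CPM on the R contig and 121, 261 and 307 CPM on the S contig, like RP6 in their proportions.

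Among the contigs lower in RP6 were R contigs whose locus differed less by its sum. The R contig of ribosomal protein L19e (AT4G02230) had 3.10 CPM in RP6 and 257 CPM in RP8, and 3.84, 281 and 2.25 CPM in R202, R206 and R221, so RP6 was like R202 and R221 and RP8 like R206. Its S contig ran the other way, with 195 and 53.0 CPM in RP6 and RP8, and the sums were 198 and 310 CPM. An S contig of its paralogue AT1G02780 had 162 CPM in RP6 and 14.7 CPM in RP8, and 165, 8.46 and 94.0 CPM in R202, R206 and R221; reads of the 2 loci may be divided between them. The R contig of AT1G14800, an OB-fold nucleic acid-binding protein, had the largest difference, 0.0437 CPM in RP6 and 125 CPM in RP8 (-7.85), with 0.147, 45.2 and 0.172 CPM in the cross A lines and locus sums of 132 and 249 CPM. Of the 7 contigs of this locus past 4-fold, only 1 was lower in RP6 and 6 were higher.

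At other contigs lower in RP6 the cross A lines were divided or all high. The bHLH factor AT4G28815 had 0.0437 CPM in RP6 and 38.6 CPM in RP8, and 0.0561, 73.7 and 64.7 CPM in R202, R206 and R221. The F-box gene AT4G35733 had 0.0875 CPM in RP6 and 31.4 CPM in RP8, with 65.3 and 52.2 CPM in R202 and R206 and 0.0276 CPM in R221. AT5G48600, annotated as structural maintenance of chromosome 3, had a contig at 0.109 CPM in RP6 and 20.9 CPM in RP8, and all cross A lines were high, at 42.8, 38.9 and 41.3 CPM. AT1G24460 had the most contigs of any locus, 20 of 21 lower in RP6, with locus sums of 63.7 CPM in RP6 and 142 CPM in RP8. The phospholipase PLDdelta (AT4G35790), which makes phosphatidic acid under stress, had 8 contigs lower in RP6 and sums of 56.8 and 84.5 CPM.

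Among the contigs higher in RP6 were loci that were low in RP8 by their sum as well. PPC4 (AT1G68750), the bacterial-type phosphoenolpyruvate carboxylase, had 11 of its 12 contigs past 4-fold and summed to 90.0 CPM in RP6 and 2.88 CPM in RP8, a log2 difference of 4.74, with 112, 72.7 and 51 CPM in R202, R206 and R221. All 3 cross A lines were therefore on the side of RP6. An Argonaute gene, AT5G21150, of the proteins that hold small RNAs, summed to 276 CPM in RP6 and 18.4 CPM in RP8, and its most different contig had 262 and 4.61 CPM, with 4.79, 443 and 671 CPM in the cross A lines. CYP71A13 (AT2G30770), an enzyme of camalexin synthesis in Arabidopsis, summed to 38.8 CPM in RP6 and 3.03 CPM in RP8, while cross A held 135, 7.83 and 4.73 CPM. Here R202 and RP6 were high and the other 3 lines low.

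At the contig with the largest difference in this direction the cross A lines were divided. The arabinofuranosidase AT5G26120, which trims arabinose from wall polymers, had a contig at 99.6 CPM in RP6 and 0.255 CPM in RP8 (7.05), and 0.259, 212 and 181 CPM in R202, R206 and R221. The Rab escort protein AT3G06540, needed for lipid anchoring of Rab GTPases, had a contig at 36.8 CPM in RP6 and 0.0261 CPM in RP8, with 41.5, 32.6 and 37.6 CPM in cross A and locus sums of 60.4 and 23.4 CPM. The chloroplast copper ATPase PAA1 (AT4G33520) had an R contig at 72.0 CPM in RP6 and 1.1 CPM in RP8, S contigs at 18.5 and 60.6 and at 20.6 and 43.7 CPM, and sums of 150 and 113 CPM. Of the NBS-LRR contigs 11 of 211 (5.21%, against 1.3% of all) were past 4-fold, but 6 of them were contigs of AT5G11250, which can share reads, and those 6 were higher in RP6. Another, tied to AT3G44480, belongs to the same assembled gene as the S contigs of AT5G11250, with 8.44 CPM in RP6 and 1.42 CPM in RP8. A further 2 were contigs of AT4G23440, lower in RP6.

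**Figure D5:**
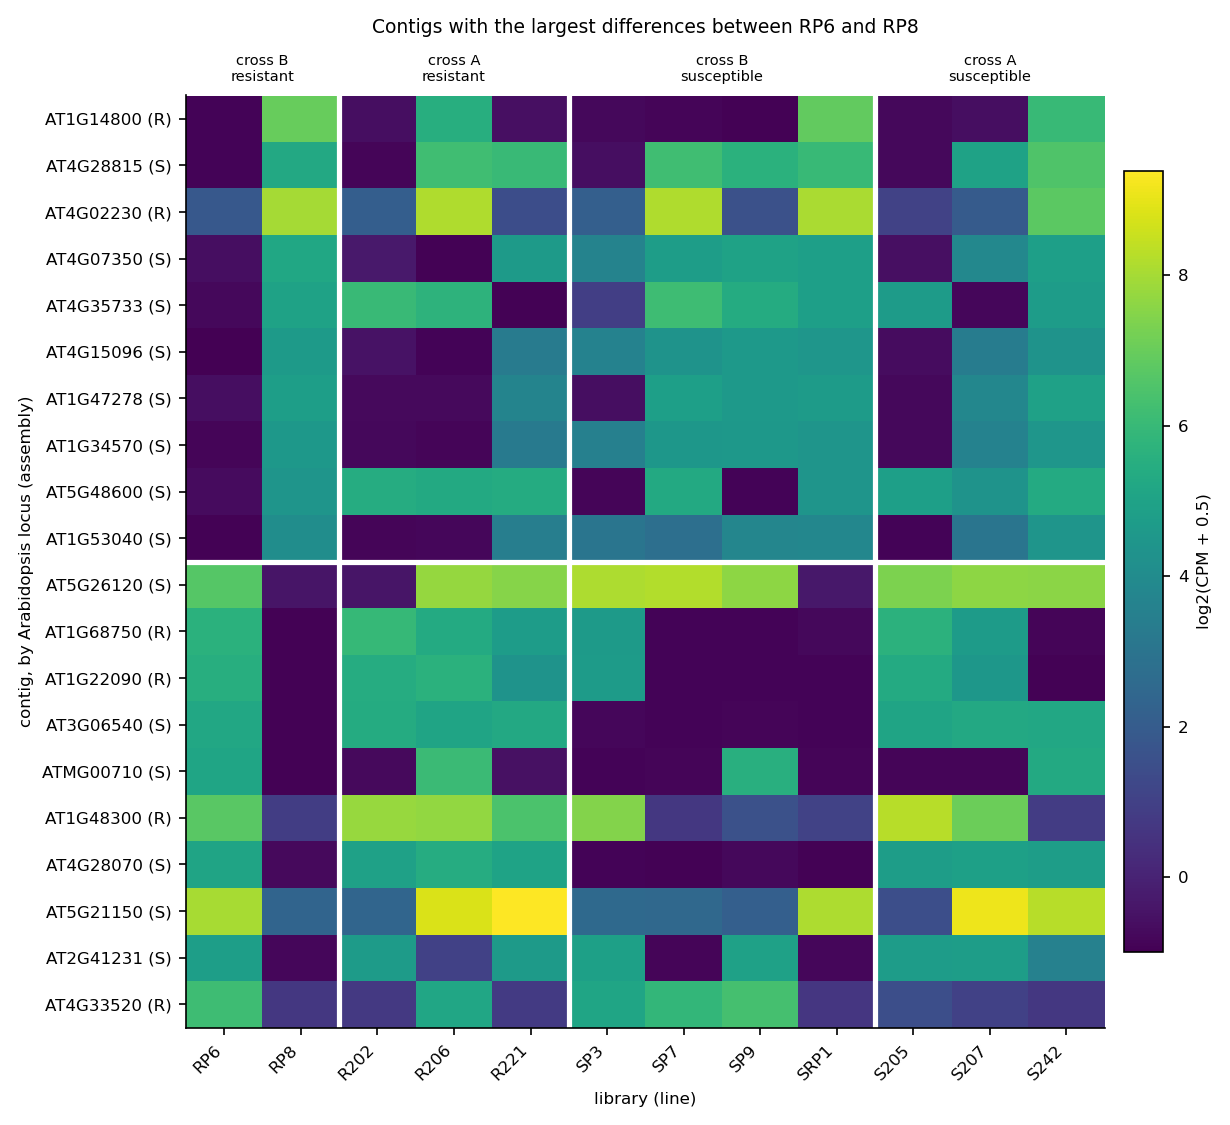
Level of 20 contigs in 12 libraries, as log2(CPM + 0.5) by colour: above, the 10 contigs lowest in RP6 relative to RP8, and below, the 10 highest; columns run as RP6, RP8, the cross A resistant lines, and the susceptible lines of cross B and of cross A. Most rows are near absence in one of RP6 and RP8, and the cross A lines are divided in many of them, as at AT4G35733 and AT5G26120.

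At most contigs that differed between RP6 and RP8 the cross A lines were divided. All cross A resistant lines stood on the RP6 side of the midpoint at 117 contigs and on the RP8 side at 39, and at 256 (62.1%) they stood on both sides. By line, R202 and R206 stood on the RP6 side at 286 and 288 of the 412 contigs and R221 at 193, and of the susceptible cross B lines SP3 did so at 213, SP9 at 147, SRP1 at 104 and SP7 at 54. Along the Arabidopsis order the highest runs were AT1G23290 to AT1G26120 with 27 of 223 contigs (12.1%) at 4 loci, AT1G47200 to AT1G48900 with 20 of 196 (10.2%) at 12 loci and AT1G35670 to AT1G47128 with 15 of 214 (7.01%) at 8 loci. Of the 27 contigs in the first run, 20 were of AT1G24460 and 5 of AT1G24070, and contigs of a locus can share reads. Chromosome 1, with these contigs included, had 1.85% of its contigs past 4-fold, and the other 4 had 0.785 to 1.61%.

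A small group of iron deficiency genes differed between RP6 and RP8. The group was chosen after the values were seen, 12 of its 16 loci were in the table, and the values are a description. bHLH101 (AT5G04150), a regulator of the iron deficiency response, summed to 21.4 CPM in RP6 and 0.431 CPM in RP8, and to 82.1, 2.11 and 0.682 CPM in R202, R206 and R221. FRO3 (AT1G23020), a ferric chelate reductase, had 7.67 CPM in RP6 and 0.549 CPM in RP8, and 49.3, 0.699 and 0.503 CPM in the cross A lines. The peptide gene IMA1 (AT1G47400), a signal of iron shortage, had 15.4 CPM in RP6 and 2.95 CPM in RP8, and 85.8, 4.95 and 2.70 CPM in R202, R206 and R221. Among the resistant lines the order was thus the same at these 3 genes, with R202 highest, RP6 next and the others low. Levels near that of RP6 were also found in susceptible lines. In SRP1, S207 and S242, IMA1 had 17.2, 13.7 and 13.3 CPM, bHLH101 11.2, 16.05 and 14.6 CPM, and FRO3 3.01, 6.71 and 7.69 CPM. The other susceptible lines, SP3, SP7, SP9 and S205, were lower, with 0.103 to 2.89 CPM of bHLH101.

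ORG1 (AT5G53450) summed to 213 CPM in RP6 and 44.0 CPM in RP8, and to 298, 56.5 and 34.8 CPM in R202, R206 and R221, and BTS (AT3G18290), a ubiquitin ligase that restrains the response, to 162 and 84.5 CPM, and 327, 94.3 and 81.5 CPM. Ferritins, which store iron, were flat or lower in RP6 than in RP8. FER1 (AT5G01600) had 7.97 CPM in RP6 and 14.0 CPM in RP8, and 4.13, 7.69 and 41.0 CPM in R202, R206 and R221. FER1 was thus about as low in R206 as in RP6. FER3 (AT3G56090) had 173 and 168 CPM in RP6 and RP8. Of the 12 loci 10 were higher in RP6 than in RP8, 4 of them past 4-fold, and none passed the test between the crosses (limma adjusted p = 0.9996 for bHLH101). Over all loci 0.466% were past 4-fold between RP6 and RP8. Because the group was chosen after these values were seen, its counts cannot be weighed against that share. The smallest of the 10 differences was 0.04 on the log2 scale, at FER3.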

How the data were processed

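The authors deposited a table of 33277 contigs by 12 libraries, an annotation that ties contigs to Arabidopsis loci, and their own comparison of phenotypes with log2 fold changes and p-values (277 contigs, of which 3 are among the 123 called here and 15 among the 412), not used for any test. The submitters' processing notes list R 3.3, edgeR, SAMtools 1.3.1, Bowtie2 and the TAIR10 annotation; the sources used here do not give what each did or how reads matching several contigs were counted. Per the labels' protocols, the TruSeq kit kept the strand of the mRNA.

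The deposited values are a coverage signal, CPM on a library size scaled by the authors: columns of the 5 libraries sum to 923295 to 1.00763e+06, and 100% of values were whole multiples of the column's smallest step within 0.1, which gives the recovered reads (100976475 to 145936928 per library). The planned design had assumed plain CPM, and its test was kept. Contigs with at least 1 CPM in 2 of the 5 libraries were tested as log2(CPM + 0.5) with limma 3.58.1 in R 4.3.3 (mean-variance trend, Benjamini-Hochberg over all contigs, called at an adjusted p under 0.05; 3 residual degrees of freedom), which understates changes of low contigs. Locus sums were tested likewise, and the difference of differences in 12 libraries with 4 group means. edgeR 4.0.16 and DESeq2 1.42.0 were run on recovered reads; other alternatives changed the pseudocount, filter, scaling, prior or libraries, and the tests were tried on simulated data. Libraries of a group were compared before averaging: no pair agreed within sampling noise (chi-square per contig 107 between RP6 and RP8, 154 to 263 between cross A lines).

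Named contigs were the 12 in each direction, 1 per locus, with the largest difference among those called, 8 in each direction for loci, 10 for RP6 against RP8, 3 by smallest p for the difference of differences, and up to 4 by smallest p per list; others that the text names were chosen after their values were seen. The comparison, its members and its lists were chosen with earlier results of these data known. No sequence was used here.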

Additional observations from a re-analysis of the deposited data

Results flagged for a closer look

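The susceptible cross B lines are the only group of 4 libraries, so they alone were examined for a line that stands apart, at 28 named contigs and sums. At 5 of these a line was farther from the others than Dixon's criterion allows, and chance gives such a line in about 1 of 20 groups. At 3 of them the values are a few reads beside none: SRP1 had 0.00796 CPM on the AT3G09700 R contig, SP3 had 0.0153 CPM on the AT5G44410 R contig and SRP1 had 0.0159 CPM for the AT2G17430 sum, each with the other lines at 0, so the gap took the whole range (ratio 1). SP7 had 5.53 CPM on the AT3G18390 S contig, against 13.0 to 13.5 CPM in SP3, SP9 and SRP1 (ratio 0.932). SP7 also had 1.06 CPM for the AT4G12020 sum, against 0.61 to 0.637 CPM in the other lines (ratio 0.941).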

How the results depend on the processing

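The counts of calls moved with the method, and no named result changed direction in any alternative run. For contigs higher in cross B (7), the 12-library fit gave 17, DESeq2 295 and leaving out 1 library 0 to 68. For contigs lower in cross B (116), a pseudocount of 2 gave 75, DESeq2 575 and leaving out 1 library 22 to 240. For loci higher (2), the 12-library fit gave 1, DESeq2 118 and leaving out 1 library 1 to 11; for loci lower (19), these were 12, 137 and 12 to 30. The difference of differences (0) gave 9 contigs at a pseudocount of 0.1, 1 with no filter, 16 in edgeR, 104 in DESeq2 and 0 to 83 with 1 library left out. The share of calls with the same direction in the susceptible lines (98.4%) was 89.3% with DESeq2 and 80.9 to 100% with 1 library left out. The share in the highest run (5.09%) was 0.364% in the 12-library fit, 8.73% in DESeq2 and 1.87 to 6.57% with 1 library left out. Between RP6 and RP8, contigs higher and lower in RP6 (195 and 217) numbered 446 and 484 past 2-fold, 84 and 78 past 8-fold, 75 and 75 at a pseudocount of 2, 105 and 110 with at least 5 CPM in the higher line, and 38 and 37 as locus sums. Of 28 named contigs and sums, 18 missed the threshold in the 12-library fit and 3 in edgeR; without RP8 it was 13 of 26, without RP6 7 of 26, and without R202, R206 or R221 3, 4 and 6 of 28. The IAA2 difference stayed between -0.22 and -0.08. The cause of these changes was not tested, except that leaving out a library leaves fewer libraries. No paired analysis was possible because the labels name lines and give no number shared between crosses.

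With 2 libraries on one side, a called difference is one that is large beside the spread of 5 libraries. Contigs of one locus share reads and are not independent. Values under 0.0196 CPM rest on at most 3 reads in every library, and in R206 this level is 0.0299 CPM. Limits from counting cover counting error only.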
